A study of Zea mays with 27 samples.

Results

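The genes described are 2 maize cellulose synthases, cesa8 (LOC541806, also written CesA-8) and CesA-9 (LOC541807), and Bk2L3 (LOC541793), a gene of the brittle stalk family. They were taken because some of their probes had very wide values over the arrays, so those widths are a description and no test was made on them. All probes that the platform's gene table assigns to 1 gene and to one of these identifiers were kept. That gave 12 probes, with 8 for cesa8, 3 for CesA-9 and 1 for Bk2L3, among 1607 one-gene probes for 532 genes.

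The study compared the inbred maize lines B73 and Mo17 with their F1 hybrid, which had Mo17 as its seed parent. Above-ground tissue of 14-day-old seedlings was used, with 6 plants pooled per genotype and replication, and the RNA was hybridized in pairs of genotypes to 27 arrays of spotted cDNA, called S1 to S27. Each of 9 kept replications had 3 arrays in a loop with alternated dyes. The labels used here name a genotype for 1 channel of S1 only (F1, labelled with Cy3), so the arrays stand in no genotype group and no difference between B73, Mo17 and F1 is given. No sample carried a mutation, transgene or treatment in the labels used here. A 2-colour ratio holds no level, so the labelled tissue could not be checked against the levels of marker genes.

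Cellulose synthases (CESA proteins) are enzymes of the plasma membrane that join glucose units into the chains of cellulose. Several of them assemble into a rosette-shaped complex that lays microfibrils into the cell wall. In grasses and other plants, different CESA genes serve the primary wall of growing cells and the secondary wall of cells that have stopped growing. Brittle stalk proteins belong to the COBRA-like family, which are anchored to the outer face of the membrane by a lipid, and loss of maize brittle stalk2 gives stalks with less cellulose that snap easily.

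Each value below is a log ratio of the 2 channels on a log2 scale, minus the median of all probes on that array. If the deposited values are natural log ratios with no constant multiple, which is not settled, a value of 1 is a 2-fold distance from that median. Fold distances below rest on that reading. In pooled tissue, fewer cells of a type and less RNA per cell cannot be told apart in such a value. The sources used here do not say which channel was divided by which, so a sign tells only on which side of that median a probe lay. A probe's spread is its 90th percentile over arrays minus its 10th. Arrays differed in how many probes held 1 identical number. On S1 to S15 between 2.47% and 13.9% of 18303 probes held the array's most frequent value, against 0.0601% to 0.475% on S16 to S27. Results are therefore also given within these sets of 15 and 12 arrays, which were defined by that share and not by any gene.

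Of the 12 probes, 9 had a spread of at least 1. The background was high, at 79.2% of all probes and 65% of one-gene probes, and the count is read no further since the genes were chosen for width. The median spread was 1.72 over the 12 probes, against 1.17 over one-gene probes and 1.54 over all probes. Just inside the threshold lay cesa8 probe 7818 with 1.01, and just outside it cesa8 probes 554 and 4048 with 0.99 each. An array's most frequent value was held at least once by 3 of the 12 probes, beside a background of 22.5% of all probes and 11.4% of one-gene probes. They were 1 probe of each gene, on 7 arrays for CesA-9 probe 1197, 4 arrays for Bk2L3 probe 4668 and 1 array for cesa8 probe 4431.

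**Figure D1:**
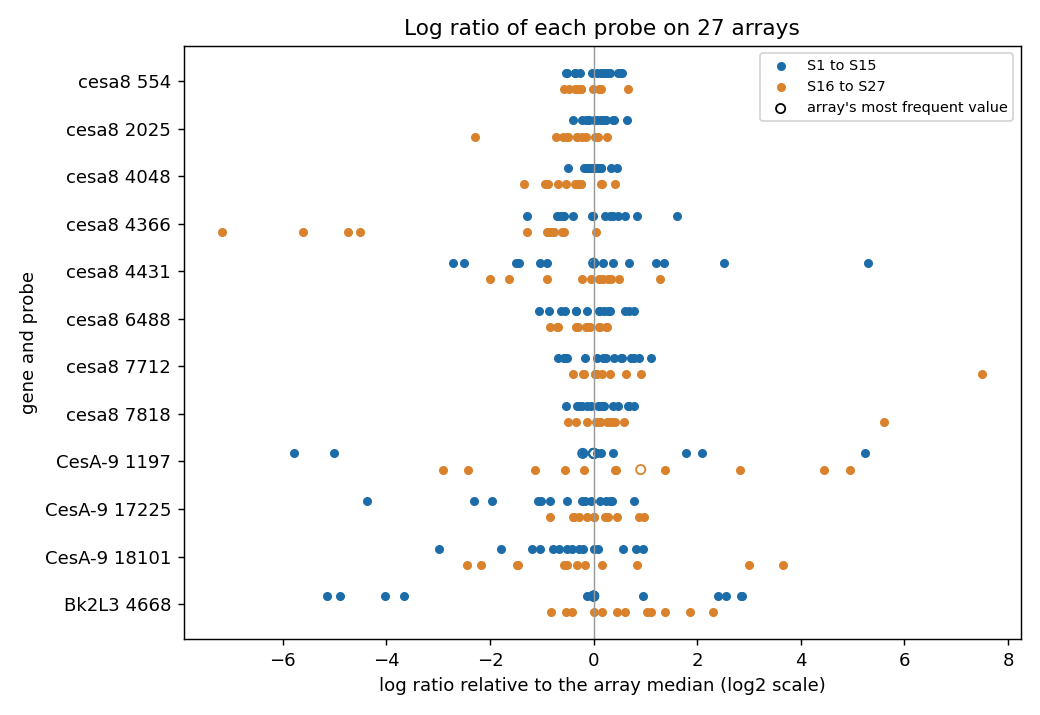
Log ratio relative to the array median (log2 scale, horizontal axis) of each of the 12 probes (rows) on 27 arrays, with 1 point per array, S1 to S15 in blue and S16 to S27 in orange. Open circles are values equal to the array's most frequent value. Most cesa8 points lie within 1 unit of 0, while cesa8 probe 4366, CesA-9 probe 1197 and Bk2L3 probe 4668 have points beyond 3 units on several arrays. Also beyond 3 units, each on a single array, are cesa8 probes 4431 (5.29), 7712 (7.51) and 7818 (5.60). The same holds for CesA-9 probes 17225 (-4.38) and 18101 (3.65).

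The wide probe of cesa8 was probe 4366, with a spread of 5.13. Its values had a median of -0.60 and ran from -7.18 to 1.61, with 8 arrays above and 19 below the array median. The width came from 4 arrays, all among S16 to S27, with -4.74 on S18, -4.51 on S21, -5.62 on S23 and -7.18 on S25. Without those 4 arrays no value of this probe was below -1.29. Leaving out S18 alone brought the spread to 3.44. Within S1 to S15 the spread was 1.42, against 4.94 on S16 to S27.

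The other cesa8 probes did not share these 4 low values. On the same arrays the other 7 probes ran from -2.29 to 1.28. The low values were rare on S18, S23 and S25, where 3, 8 and 7 of 18303 probes lay as low. On S21, 87 probes did. The 15 valued spots nearest to probe 4366 in its print block had medians of 0.05 on S18, 0.00 on S21, -0.30 on S23 and -0.06 on S25. After the median of its block of 400 spots was removed in place of the array median, the 4 values were -4.81, -4.31, -4.94 and -7.21. None of them was an array's most frequent value. Readings as low as these 4 thus belonged to 1 spot of 8 for this gene, and its nearest neighbours went no lower than -3.14, on S25. Smaller low values occurred for other cesa8 probes on 2 of these arrays. On S21, probes 2025 and 4048 had their lowest values, at -2.29 and -1.34, and on S25 probe 4431 read -1.64.

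Further far values for cesa8 came from the S27 array. Probes 7712 and 7818 read 7.51 and 5.60 there, while on the other 26 arrays they stayed within -0.68 to 1.11 and -0.54 to 0.78. Both lie in block 20, whose median on S27 was 3.33, and the next highest block median on that array was 0.58. Centred on their block, they read 4.18 and 2.27 on S27. The 20 valued spots nearest to each in that block had medians on S27 of 6.076 for 7712 and 4.495 for 7818. The 10th and 90th percentiles of the block there were -3.86 and 9.31, so both readings lay between them. None of the other 6 cesa8 probes was above 0.12 on S27. The part of the block in these 2 readings was not tested over arrays. The agreement of a group of cesa8 probes that holds this pair is given with and without S27.

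The remaining cesa8 probes were narrow, apart from probe 4431. Probe 554 ran from -0.57 to 0.66 with a median of -0.01 and was never 2-fold from the array median. Probe 2025 ran from -2.29 to 0.65 and probe 4048 from -1.34 to 0.46, each 2-fold away on 1 array, S21. Probe 6488 ran from -1.04 to 0.78. Probe 4431 differed from them, with a range from -2.71 on S11 to 5.29 on S6, a median of 0.10 and 12 arrays at least 2-fold away. On S1 to S15 its spread was 4.15, against 2.04 on S16 to S27. Spots assigned to 1 gene thus gave spreads from 0.86 to 5.13.

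All 3 CesA-9 probes were wide, with spreads of 6.10, 2.82 and 2.01. Probe 1197, the widest, had a median of 0.00, was lowest on S5 (-5.78) and S6 (-5.02), and was highest on S10 (5.25), S24 (4.95) and S16 (4.45). It held the array's most frequent value on S1, S2, S3, S7, S9, S11 and S23. On 16 of 27 arrays its value was shared by at least 3 probes, and on S10 the reading of 5.25 was shared by 8 probes. With its most frequent values taken as missing, its spread was 7.62. High and low values of 1197 occurred in both sets of arrays, with spreads of 5.06 on S1 to S15 and of 6.58 on S16 to S27.

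CesA-9 probe 18101 had a median of -0.41, with 9 arrays above and 18 below the array median. It read 3.65 on S22 and 3.00 on S20, and -2.99 on S15, -2.45 on S26 and -2.17 on S21. Probe 17225 had a median of -0.14 and reached down to -4.38 on S9, -2.31 on S2 and -1.97 on S15, while its highest value was 0.97. Its 5 values at least 2-fold away were all in S1 to S15. The 3 probes matched on some arrays and parted on others. Probes 1197 and 18101 were both high on S20 (2.84 and 3.00) and both low on S21 (-2.42 and -2.17), but on S22 probe 1197 read -2.91 and probe 18101 read 3.65. Probe 17225 read 0.22 on S22 and was low together with 18101 on S15.

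Bk2L3 had 1 probe, 4668, with a spread of 6.27. It was low on S13 (-5.15), S11 (-4.90), S2 (-4.03) and S4 (-3.67), and high on S10 (2.86), S3 (2.85), S12 (2.55) and S9 (2.39). It equalled the array's most frequent value, which was also the median, on S5, S6, S7 and S14. The high readings were values shared with other probes, by 12 probes on S10, 11 on S3, 9 on S12 and 7 on S9, whereas the low readings were shared by at most 3. Those 8 far values and 4 repeated values all fell in S1 to S15, where the spread was 7.28.

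Within S16 to S27 Bk2L3 was narrower, with a spread of 2.34 and a range from -0.81 on S23 to 2.30 on S27. On those 12 arrays no other probe had the same value as Bk2L3. Its median there was 0.54, and 5 of the 12 values were at least 2-fold from the array median. No second probe was assigned to Bk2L3, so its readings have no repeat on the same array.

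**Figure D2:**
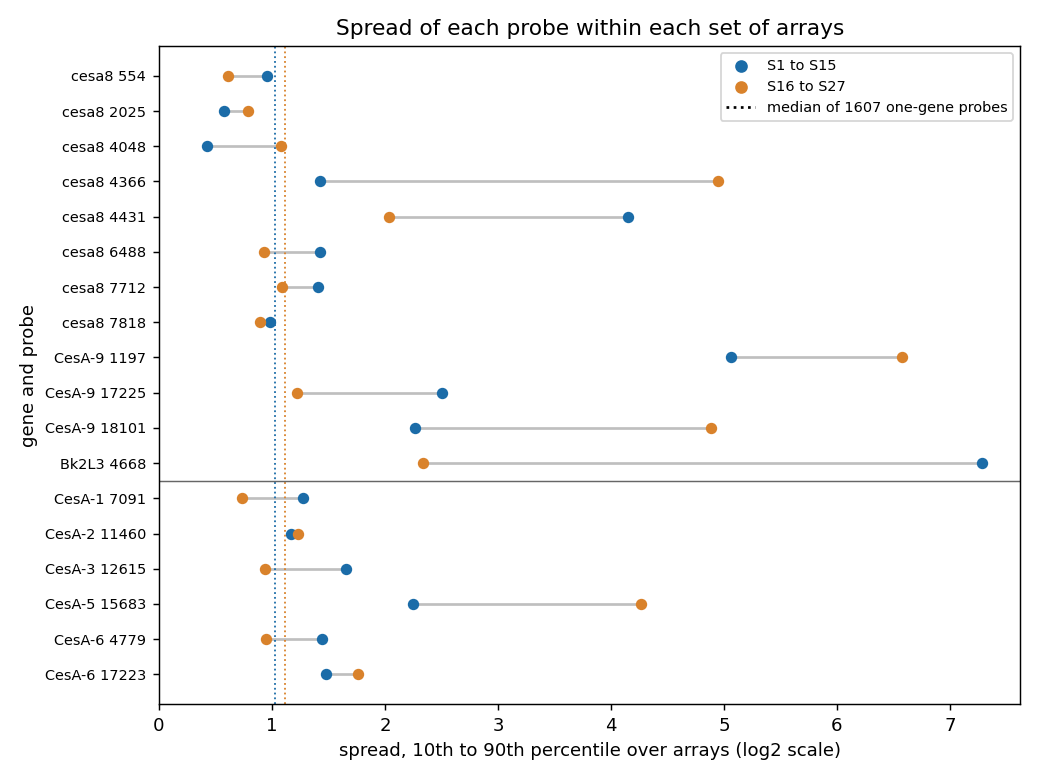
Spread over arrays, as the 90th percentile minus the 10th (log2 scale, horizontal axis) of the 12 probes and, below the line, of the 6 probes of other cellulose synthases, with S1 to S15 in blue and S16 to S27 in orange. Dotted lines are the medians of 1607 one-gene probes in each set. Bk2L3 probe 4668 lies at 7.28 on S1 to S15 and 2.34 on S16 to S27, cesa8 probe 4366 at 1.42 and 4.94, and CesA-9 probe 1197 at 5.06 and 6.58.

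Probes of the same gene were next set against each other over arrays. Correlations here describe these arrays, which share RNA within a loop, and carry no p. For cesa8 the Pearson correlation of the 28 probe pairs had a median of 0.14 over 27 arrays, and 22 pairs were above 0. Over all pairs of one-gene probes of different genes the median was 0.01. For CesA-9 the 3 pairs gave -0.02, 0.07 and 0.16. The correlation about 0, which does not change if an array's sign is turned, had medians of 0.14 for cesa8 and 0.13 for CesA-9.

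The median over the 28 cesa8 pairs was 0.43 on S1 to S15 and 0.03 on S16 to S27, a difference that was not tested. A group of 5 probes, 554, 4366, 6488, 7712 and 7818, made up all 10 pairs with a correlation of at least 0.6 in S1 to S15. The threshold of 0.6 was chosen after the correlations were seen, and at 0.5 a further pair, 4048 with 4366, would enter with 0.51. The high agreement of the 5 on S1 to S15 is therefore partly fixed by their choice. Their 10 pairs lay between 0.69 and 0.92, and the median was 0.80. In that set 5.51% of the pairs of one-gene probes of different genes reached 0.6, as did 6.28% in S16 to S27.

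On 9 of the 15 arrays S1 to S15 the 5 probes lay on the same side. All 5 lay above the array median on S2, S3, S6, S8 and S15, and all 5 lay below it on S1, S7, S11 and S14. The median of the 5 ran from -0.62 on S14 to 0.73 on S6, so these shared movements were smaller than 2-fold. Without the 2 arrays farthest from the middle, the 10 pairs still ran from 0.62 to 0.90. Their median after block centring was 0.73, from 0.47 to 0.89. The spots lie in blocks 2, 11, 17 and 20, with 7712 and 7818 in the same block.

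In S16 to S27 the same 5 probes were on 1 side on 4 of 12 arrays, and their 10 pairs lay between -0.14 and 0.99, and the median was 0.17. The pair at 0.99 was 7712 with 7818, which share the far values of S27. Without S27 the 10 pairs in that set lay between -0.25 and 0.69, and the median was 0.32. Over all 27 arrays the 10 pairs had a median of 0.30, or 0.62 without S27. The pair 7712 and 7818 had 0.97 over all arrays, 0.75 without S27 and 0.81 within S1 to S15. Among 78 genes with at least 5 probes, ranked by the median agreement of their own probes, cesa8 was the 19th in S1 to S15, the 56th in S16 to S27 and the 39th over all arrays. MNB1b, an uncertain name on many probes, was left out of that ranking.

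**Figure D3:**
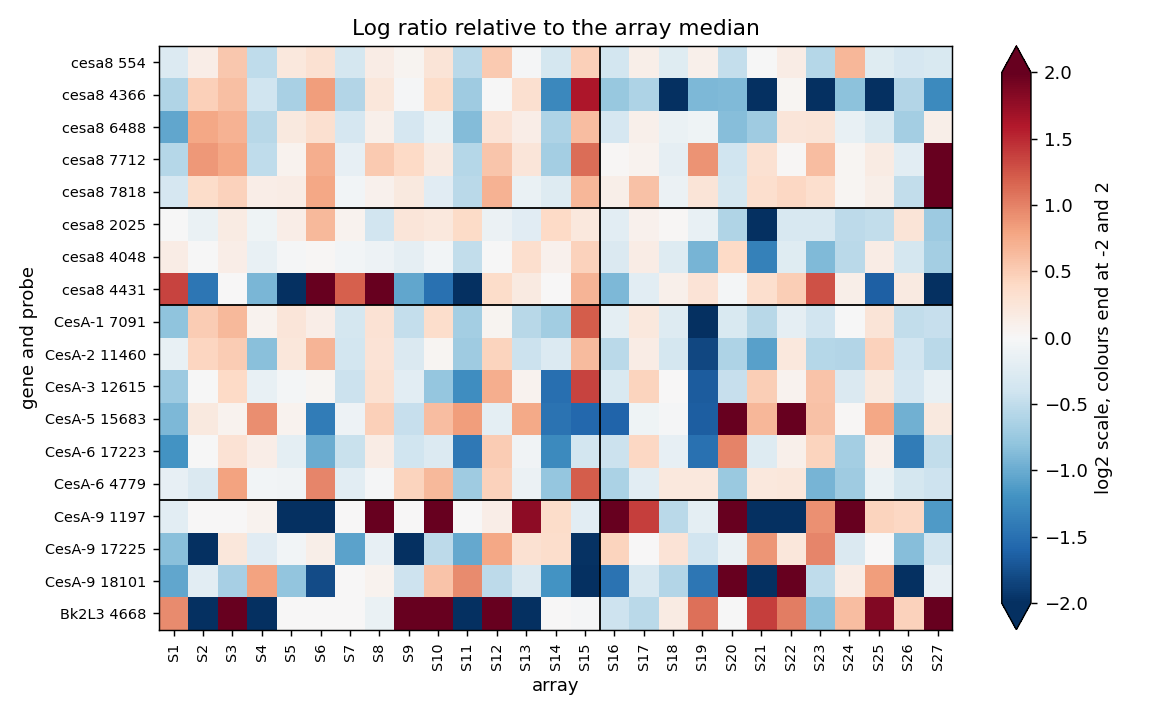
Log ratio relative to the array median (log2 scale, colour, which ends at -2 and 2) of 18 probes (rows) on 27 arrays (columns), with S1 to S15 left of the vertical line and S16 to S27 right of it. From the top, rows are the 5 cesa8 probes named in the text, the other 3 of cesa8, the 6 probes of other cellulose synthases, and CesA-9 with Bk2L3. The top 5 rows lie on the same side of 0 on 9 of the 15 arrays at the left and on 4 of the 12 at the right.

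Across genes there was little agreement. The 24 pairs of a cesa8 with a CesA-9 probe had a median of -0.08, and the 8 pairs of a cesa8 probe with Bk2L3 had a median of 0.08 and a highest value of 0.36, for probe 554. Without S27 these medians were -0.13 and 0.10. The widest probes of the 3 genes gave 0.03 for 4366 with 1197, -0.13 for 4366 with 4668 and -0.02 for 1197 with 4668. On S1 to S15 the median of the 5 cesa8 probes gave -0.18, -0.00 and -0.47 with the CesA-9 probes 1197, 17225 and 18101, and 0.30 with Bk2L3. In that set the 8 pairs of cesa8 with Bk2L3 were all above 0, with a median of 0.21 and a highest of 0.55. On S16 to S27 they ran from -0.56 to 0.57. The cesa8 and CesA-9 pairs ran from -0.74 to 0.25 on S1 to S15 and from -0.53 to 0.58 on S16 to S27. For all one-gene pairs of different genes the 10th and 90th percentiles were -0.43 and 0.50, and -0.49 and 0.51, in these sets. The lowest values of cesa8 probe 4366 and of Bk2L3 fell on different arrays, S18, S21, S23 and S25 for the one and S2, S4, S11 and S13 for the other.

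Other cellulose synthases named in the gene table had 6 probes for 5 genes, CesA-1, CesA-2, CesA-3, CesA-5 and CesA-6. All 6 had a spread of at least 1, with a median of 1.46, beside a background of 65% of one-gene probes at 1 or more. None of the 6 ever held an array's most frequent value, beside 11.4% of one-gene probes that did. These probes were set against the median of the 5 cesa8 probes, a comparison made after those 5 were picked. On S1 to S15 the correlation was 0.87 for CesA-2 probe 11460, 0.79 for CesA-6 probe 4779, 0.78 for CesA-3 probe 12615 and 0.76 for CesA-1 probe 7091. It was 0.53 for CesA-6 probe 17223 and -0.19 for CesA-5 probe 15683. Thus 4 of 6 reached 0.6, against a background of 176 of 1599 one-gene probes of other genes (11%), among which CesA-2 stood 3rd.

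The correlations with cesa8 were lower in the other set of arrays, a difference that was not tested. Within S16 to S27 the same 4 probes gave -0.13 for CesA-2, 0.15 for CesA-6 probe 4779, 0.19 for CesA-3 and -0.19 for CesA-1, where 0.938% of one-gene probes reached 0.6. Over all 27 arrays they gave 0.52, 0.65, 0.61 and 0.45 in that order, and 1.44% of one-gene probes reached 0.6. Without S27 they gave 0.53, 0.67, 0.61 and 0.46 over the other 26 arrays, and -0.12, 0.19, 0.20 and -0.18 over the other 11 arrays of S16 to S27. After block centring, over all 27 arrays, they gave 0.68, 0.62, 0.72 and 0.70, with 3.19% of one-gene probes at 0.6 or more. Block centring within S1 to S15 gave 0.94, 0.74, 0.85 and 0.79, where 9.57% of one-gene probes reached 0.6. Block centring within S16 to S27 gave 0.28, 0.27, 0.51 and 0.57, where 1.44% did. In the same order, cesa8 probe 4048, which is not among the 5, gave 0.46, 0.44, 0.52 and 0.36 on S1 to S15. Within S16 to S27 it gave 0.67, -0.19, 0.05 and 0.53, higher for CesA-2 and CesA-1 and lower for the others. Among themselves the 3 pairs of CesA-1, CesA-2 and CesA-3 had medians of 0.71 on S1 to S15 and 0.78 on S16 to S27. With block centring these medians were 0.74 and 0.31. The S19 array, in the second set, held the lowest value of each of these 3 probes, at -2.36, -1.82 and -1.66. There CesA-6 probe 4779 read 0.20 and the median of the 5 cesa8 probes was 0.11. Neither these medians nor the correlations with cesa8 were computed without S19, so how far they rest on that array was not tested. CesA genes are related in sequence, and whether a spotted cDNA also bound transcripts of another family member was not tested.

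The CesA-9 probe 18101 had its own companion in the family, CesA-5 probe 15683. This pair was noticed in the correlations and then described. Over 27 arrays the Pearson correlation was 0.87, Spearman's rho was 0.77 and the correlation about 0 was 0.83. On S1 to S15 it was 0.88, and on S16 to S27 it was 0.86, so the pair held in both sets of arrays. On S20 the probes read 3.00 (18101) and 2.99 (15683), on S22 they read 3.65 and 2.95, and on S15 they read -2.99 and -1.57. On S21 they parted, with -2.17 for 18101 and 0.67 for 15683. Without the 2 arrays farthest from the middle of 18101 the correlation was 0.73 over the remaining arrays, 0.83 on S1 to S15 and 0.52 on S16 to S27.

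Among 1604 one-gene probes of other genes, CesA-5 probe 15683 was the 12th most like 18101 over all arrays, the 14th within S1 to S15 and the 25th within S16 to S27. With block centring it was the 2nd over all arrays and within S1 to S15, and the 5th within S16 to S27, with correlations of 0.89, 0.86 and 0.93. The spots are in different blocks. The other CesA-9 probes did not share this likeness, with 0.05 for 1197 and 0.18 for 17225 against the same CesA-5 probe. The pattern of 18101 was thus closer to a CesA-5 spot than to either other spot assigned to CesA-9.

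**Figure D4:**
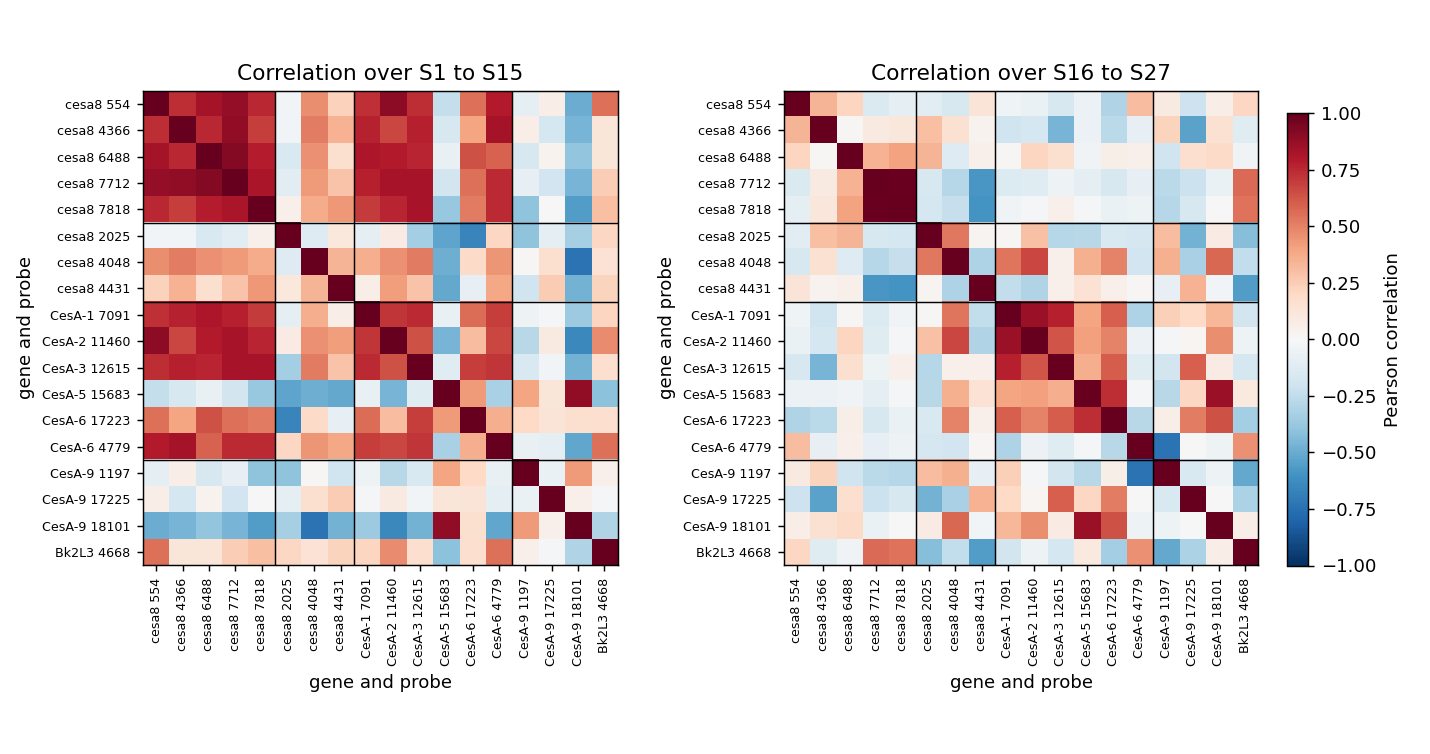
Pearson correlation (colour, from -1 to 1) between 18 probes over S1 to S15 (left) and over S16 to S27 (right), in the row order of the map of log ratios by array. The dark block at the upper left of the left panel is the group of 5 cesa8 probes, with a median of 0.80, which extends to CesA-1, CesA-2, CesA-3 and CesA-6. In the right panel the block of the 5 is mostly gone (median 0.17). CesA-9 probe 18101 with CesA-5 probe 15683 stays dark in both, at 0.88 and 0.86. The 3 pairs among CesA-1, CesA-2 and CesA-3 run from 0.64 to 0.75 at the left and 0.63 to 0.86 at the right. After block centring, which is not drawn, the pairs at the right run from 0.24 to 0.85. All 3 of these probes have their lowest value on S19, an array of the right panel.

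By the rule for likeness, the 3 one-gene probes of other genes that moved most like each gene's widest probe over 27 arrays were taken. Over all arrays 2.25% of the pairs of one-gene probes of different genes reached 0.6. The genes named here are therefore a description and are read no further. For cesa8 probe 4366 they were met2a (0.63), the enolase gene eno1 (0.62) and yab9 (0.57). For CesA-9 probe 1197 they were cal2 (0.62), paa (0.62) and LOC542160 (0.60), and the last held the most frequent value on 4 arrays, each time together with 1197. For Bk2L3 probe 4668 the 3 nearest probes were all named MNB1b, with 0.63, 0.62 and 0.56. That uncertain name is on many probes, so its recurrence is read no further. Those MNB1b probes gave 0.67, 0.72 and 0.69 on S1 to S15, and on S16 to S27 they gave 0.47, 0.20 and 0.02. For 1197 the values of cal2, paa and LOC542160 were 0.74, 0.78 and 0.74 on S1 to S15, and 0.47, 0.15 and 0.34 on S16 to S27. For 4366 those of met2a, eno1 and yab9 were 0.67, 0.40 and 0.55 on S1 to S15, and 0.64, 0.84 and 0.56 on S16 to S27. Without the 2 arrays farthest from the middle, the 3 for 4668 were at 0.36, 0.27 and 0.28, those for 1197 between 0.43 and 0.53, and those for 4366 between 0.46 and 0.57.

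Other genes tied to the wall by name were described from a list matched on symbols and synonyms. Sucrose synthases, which supply UDP-glucose for cellulose, had 12 probes of 2 genes, sh1 and sus1, with a median spread of 1.31. Of the 12, 10 had a spread of at least 1, beside 65% of one-gene probes and 79.2% of all probes. Expansins, which loosen the wall, had 6 probes with a median of 1.77, and 5 reached 1. Genes listed as wall proteins by the symbols HRGP, PRP and GRP had 36 probes with a median of 1.21, of which 30 reached 1. Of these probes 26 belong to 1 gene, grp1, and whether it encodes a wall protein was not checked. Monolignol enzymes, which make the units of lignin, had 7 probes with a median of 2.63, and peroxidases had 6 with a median of 3.80, all at 1 or more. Beside these, the median spread was 2.82 for the 3 probes of CesA-9, 6.27 for that of Bk2L3 and 1.11 for the 8 of cesa8.

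On S1 to S15, 5 of 12 sucrose synthase probes (2 genes) and 7 of 36 wall protein probes (4 genes) reached 0.6 with the median of the 5 cesa8 probes. None of the 6 expansin, 7 monolignol and 6 peroxidase probes did, beside the background of 11%. Within S16 to S27, 1 of 6 peroxidase probes reached it, at 0.64, and no probe of the sucrose synthases, wall proteins, expansins or monolignol enzymes did, beside a background of 0.938%. Probes of 1 gene are repeats, so these counts are of spots and not of separate genes. The list held no korrigan, UDP-glucose enzyme or xyloglucan enzyme probe by these names.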

How the data were processed

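The authors deposited 1 value for each spot of an array, taken here as a natural log (ln) ratio of 2 channels, Cy3 and Cy5 per the labels. The base was inferred: gaps between repeated values equalled 2 times the ln of a whole number in 106 pairs, against 4.83 at shifted distances, over 6 combinations tried. Gaps of 1 times the ln matched 33 pairs, against 12.3 at shifted distances. A constant multiple of 2 in the deposited values is therefore not settled, and fold values rest on a multiple of 1. The sources used here do not name the scanner, background correction, normalization or numerator. Values were divided by ln 2 and centred on the median of each array with Python 3.11.15, numpy 2.4.6 and pandas 2.3.3. Of 19200 spots, 897 were empty. The scripts were tested on simulated data. Genes were named through GEO's platform table and RefSeq (Zm-B73-REFERENCE-NAM-5.0), which held 515 of 532 genes. Of 1630 probes there, 23 had several genes and were not named.

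All arrays stayed ungrouped, so no test was made. The rule for named genes took all probes of the 3 genes, the 3 probes most like each widest one, and the wall list, beside the other cellulose synthases. Blocks are runs of 400 spots in table order, an inference. Intensities were not used, so signal over background is unknown, and the number of arrays limits the precision. The members and lists were chosen with earlier results of these data known.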

Additional observations from a re-analysis of the deposited data

How the results depend on the processing

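No paired analysis was possible because the labels put the arrays in no group. The count of 9 probes at a spread of 1 or more was 5 with the interquartile range as the measure, and between 8 and 10 when each array was left out in turn. The median spread of 1.72 then ran from 1.51 to 1.78. Single spreads stayed within 1 SD of the probe's values for all 12 probes when arrays were scaled, left uncentred or block centred, and when most frequent values were missing. That limit is loose, since the SD grows with the spread. Within it, cesa8 probe 4366 went from 5.13 to 3.76 with arrays scaled. The deposited scale only changes the unit, so its result within the limit tells nothing more. With S1 to S15 alone 2 of the 12 spreads moved further, with S16 to S27 alone 3, and with the interquartile range 8. Agreement within cesa8 ran from 0.05 without S6 to 0.20 without S27, against 0.14. Agreement within CesA-9, 0.07 over all arrays, was -0.049 within S16 to S27 and ran from -0.028 to 0.11 with arrays left out. For the widest probes of the 3 genes the median of -0.02 was 0.069 on S1 to S15 and -0.12 on S16 to S27, and ran from -0.14 to 0.016 with arrays left out. The following alternatives were chosen after seeing the data. For the 5 cesa8 probes the median of 0.80 ran from 0.76 to 0.84 with arrays left out, and was 0.17 within S16 to S27 and 0.30 over all arrays. For the 6 other cellulose synthase probes the median of 0.77 with those 5 ran from 0.73 to 0.81, was 0.48 over all arrays and 0.031 within S16 to S27. The agreement of CesA-9 probe 18101 with CesA-5 probe 15683 ran from 0.82 to 0.93 with arrays left out and was 0.91 with arrays scaled. The cause of these changes was not tested.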
